A study of Homo sapiens with 12 samples.

Results

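The SR proteins and hnRNPs are the 2 large families of splicing regulators that bind nascent transcripts. Their genes were taken by symbol from both deposited expression tables, as every row named SRSF or HNRNP followed by letters or digits, together with TRA2A and TRA2B. The rule found 43 of 48114 rows, namely 12 SRSF genes, 2 TRA2 genes, 25 HNRNP genes and 4 further HNRNP symbols that end in a pseudogene number. The study sequenced polyadenylated RNA of PANC-1 and HPAF-II cells, which are human pancreatic ductal adenocarcinoma (PDAC) lines taken by the study as models of the basal-like and the classical subtype, respectively. All 12 libraries came from cells transfected with small interfering RNA (siRNA) and harvested after 48 h. In PANC-1 the siRNA was a control (siCtrl), against QKI (siQKI) or against RBFOX2 (siRBFOX2), with 3 libraries in each group, while HPAF-II cells received siCtrl only, in 3 libraries. The siRNA dose is given as 40 nM for siQKI and siRBFOX2 and is not given for siCtrl. Each subtype was thus represented by 1 cell line, no group was left untransfected, and no source used here says whether the replicates came from separate cultures, so that p-values measure the spread between these libraries.

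SR proteins carry RNA recognition motifs and a domain rich in arginine and serine, bind exonic enhancers and generally favor exon inclusion. The hnRNPs coat the pre-mRNA and often, though not always, repress nearby splice sites, so that the choice of an exon can depend on the balance between the families. Many of these genes regulate their own mRNA through exons that trigger nonsense-mediated decay. QKI and RBFOX2, the silenced proteins, are also splicing factors, which bind ACUAA-containing and UGCAUG elements, respectively, and are known from mesenchymal-like carcinoma cells.

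The knockdowns and the cell identity were first checked in the same tables. QKI was at 25909, 24539 and 26150.4 normalized counts in the siCtrl libraries and at 4629.7, 5453 and 5020.2 in the siQKI libraries, a mean of 19.7% of siCtrl. RBFOX2 was at 15355, 15508 and 15424 normalized counts in siCtrl and at 2403, 2171 and 1712 in siRBFOX2, a mean of 13.6% of siCtrl. RBFOX2 was also lower in siQKI (log2 fold change -0.29 ± 0.089, adjusted p = 0.0207), whereas QKI in siRBFOX2 did not pass the test (0.13 ± 0.057, adjusted p = 0.105). The 6 epithelial carcinoma markers were above 0 in each group. Their summed normalized counts were 864037 to 920091 in siCtrl, 839226 to 904679 in siQKI, 713084 to 770588 in siRBFOX2 and 3061487 to 3367941 in HPAF-II. In PANC-1 nearly all of it came from KRT8, KRT18 and KRT19. CDH1 was called higher in siQKI (1.39, adjusted p = 1.54e-07) and in siRBFOX2 (0.53, adjusted p = 0.00177). KRT18 was called lower in both, and KRT8 and KRT19 in siRBFOX2 only. The 3 mesenchymal markers summed to 1686612 to 1907777 in PANC-1, nearly all of it from VIM, and to 310.1 to 4538 in HPAF-II. VIM (-0.13) and ZEB1 (-0.28) were called lower in siQKI, whereas CDH2 was called higher in siQKI (0.265) and in siRBFOX2 (0.22). Among the markers of other cell types, the sum of 4 leukocyte markers was 50083 to 56672 in siCtrl, 38008 to 39000.3 in siQKI and 42384 to 44545 in siRBFOX2, nearly all of it from CD68, with CD3E at 0 in every PANC-1 library. In HPAF-II that sum was 21546.7 to 30453.7, again nearly all from CD68. The 5 fibroblast markers summed to 4166 to 4700.3 in siCtrl, 8485 to 9751 in siQKI and 5109 to 7443 in siRBFOX2, mostly from COL1A1. Of the 3 that were tested, 2 were called higher in each knockdown. These were COL1A1 (0.99 in siQKI, 0.42 in siRBFOX2) and PDGFRB (1.42 and 0.89). DCN was at 0 in every PANC-1 library. In HPAF-II the fibroblast markers summed to 5494.5 to 6119.9, with DCN at 18.3 to 278.9 and LUM at 249.3 to 358.8. The 3 endothelial markers summed to at most 70.7 in any library. The part of these markers in the values below was not tested.

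Of the 43 members, 38 were expressed at 10 or more normalized counts on average over the 9 PANC-1 libraries and entered the test. The remaining 5 (HNRNPCL1, HNRNPCL2, HNRNPCL3, HNRNPCL4 and HNRNPKP3) were listed at 0 in every library of both lines. As many as 34 members averaged 10000 or more normalized counts, a level that 5003 of the 22544 tested genes reached. The other 4 tested members were SRSF12, HNRNPA1P33, HNRNPA3P1 and HNRNPA1L2, with means of 22.3, 168, 97.5 and 9762. HNRNPA1, HNRNPA1L2, HNRNPA1P10 and HNRNPA1P33, and likewise HNRNPA3 and HNRNPA3P1, are near-identical copies whose reads can be exchanged, and their separate values are uncertain. Some members overlap another gene: SRSF2 shares 1547 bases with MFSD11 and SRSF9 2082 bases with GATC, HNRNPAB shares 2710 bases with PHYKPL, and HNRNPH3 overlaps both RUFY2 and PBLD. Whether the counting used the strand is not given in the sources used here, so reads from such neighbors may be counted for either gene.

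After QKI silencing, 18 of the 38 tested members fell and 1 rose. Every change was small: no member averaging 50 or more normalized counts moved by 1.5-fold in either knockdown. Falls were found mainly among hnRNP genes (14 of 21 tested, none rose), whereas 2 of 12 SRSF genes (SRSF4 and SRSF9) fell and SRSF5 rose. TRA2B and the HNRNPA1P10 copy were the other members that fell. Over all 22544 genes tested, 18.1% were called lower and 14.9% higher in siQKI. The members are abundant genes, however, and among genes averaging 10000 or more normalized counts, a background added after the data had been seen, 44.0% were called lower and 16.8% higher. For the members of that abundance the share lower was 52.9%, and their median log2 fold change was -0.10, against -0.096 for all genes of that abundance. The falls of the members therefore lay near the background of similarly abundant genes. The plot of log2 fold changes against siCtrl shows the members one by one, and the plot of their distribution sets them against both backgrounds.

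**Figure D1:**
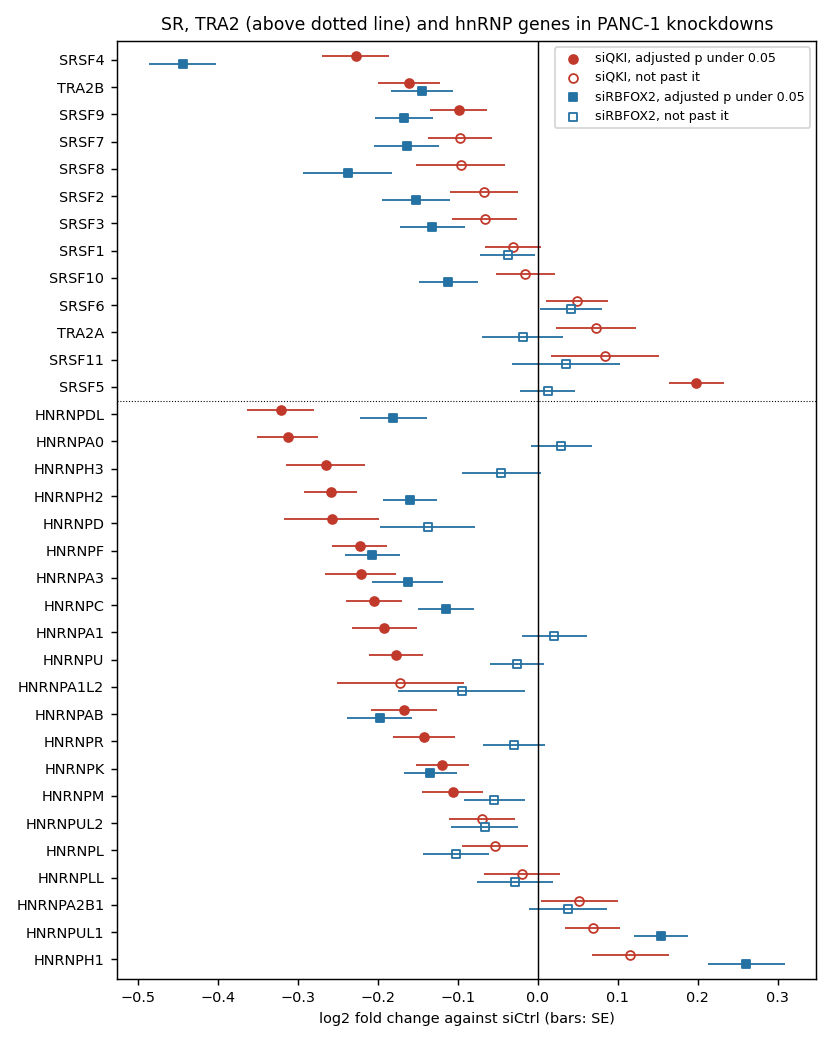
Log2 fold change (x axis) of the SR, TRA2 and hnRNP genes averaging 50 or more normalized counts, without the symbols that end in a pseudogene number, in siQKI (red circles) and siRBFOX2 (blue squares) against the same 3 siCtrl libraries, with SE as bars. Filled symbols passed the adjusted threshold of 0.05. SRSF4 fell most in siRBFOX2 (-0.44) and HNRNPDL most in siQKI (-0.32), while SRSF5 passed the threshold as higher in siQKI and HNRNPH1 in siRBFOX2.

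**Figure D2:**
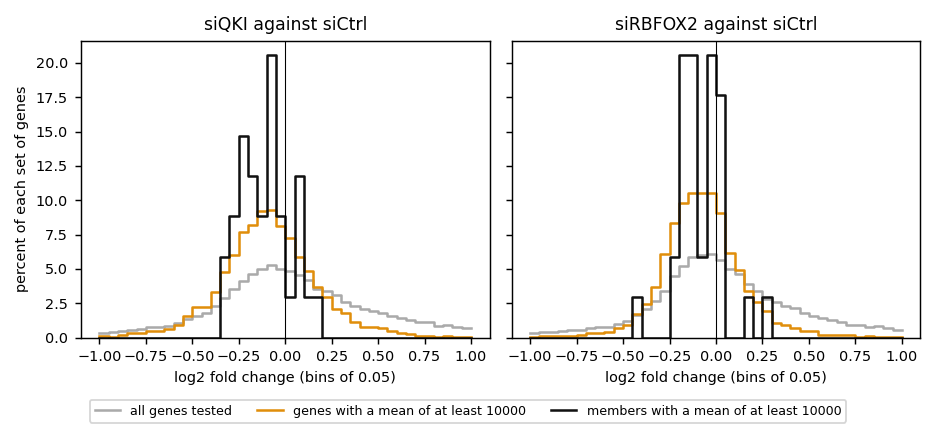
Percent of genes (y axis) by log2 fold change against siCtrl in bins of 0.05 (x axis, drawn from -1 to 1) for all 22544 tested genes (gray), the 5003 genes averaging 10000 or more normalized counts (orange) and the 34 members of that abundance (black). The orange and black curves both lie left of the gray one in siQKI, with medians of -0.096 and -0.10.

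The hnRNP genes that fell after QKI silencing included both of the D group and 4 of 6 of the A/B group. HNRNPDL (GSHG0033580, chr4:82422565-82430462, hg38), a relative of HNRNPD known to regulate its own mRNA, was at 68866, 66468 and 69038 normalized counts in siCtrl and at 53561, 54146 and 55859 in siQKI. It fell by 20.0% (log2 fold change -0.32 ± 0.042 SE, adjusted p = 2.79e-05), with all siQKI libraries below all siCtrl libraries. HNRNPD (GSHG0033578, chr4:82352498-82373991), also known as AUF1 and known to bind AU-rich elements of unstable mRNAs, was at 73702, 68333 and 67999 in siCtrl and at 56834, 58859 and 59879 in siQKI. It fell by 16.4% (-0.26 ± 0.059, adjusted p = 0.00327), again without overlap. Of the A/B group, HNRNPA0 (GSHG0035790, chr5:137745651-137754363), another protein that binds AU-rich elements, was at 125910.4, 132919.9 and 128054 in siCtrl and at 108002, 100450.3 and 103152 in siQKI. It fell by 19.5% (-0.31 ± 0.038, adjusted p = 1.44e-05), and the siQKI libraries lay below those of both other groups. HNRNPA3 (-0.22), HNRNPA1 (-0.19) and HNRNPAB (-0.17) fell as well, whereas HNRNPA2B1, the partner of HNRNPA1 in core hnRNP particles, had a log2 fold change of 0.052 ± 0.048 and did not pass the test (adjusted p = 0.467).

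Proteins of the F/H group bind runs of guanines, and 3 of its 4 genes fell in siQKI. HNRNPH3 (GSHG0004147, chr10:68331174-68343196) was at 44037, 40678 and 43943 normalized counts in siCtrl and at 33902, 35998 and 37158 in siQKI, without overlap (-0.27 ± 0.050, adjusted p = 0.00065). HNRNPH2 (GSHG0045949, chrX:101408219-101414133) was at 107093, 112555 and 109996 in siCtrl and at 91255, 91208 and 92967 in siQKI, also without overlap (-0.26 ± 0.034, adjusted p = 2.52e-05). HNRNPF fell by a log2 value of 0.22. HNRNPH1 pointed the other way (0.12 ± 0.048) but missed the threshold (adjusted p = 0.0797), and 1 of its siQKI libraries lay within the siCtrl range. Further falls were seen in HNRNPC (-0.20), which binds uridine tracts, HNRNPU (-0.18), a nuclear scaffold protein, HNRNPR (-0.14), HNRNPK (-0.12), which binds cytidine-rich RNA, and HNRNPM (-0.11). HNRNPL and HNRNPLL, both binding CA repeats, had log2 fold changes of -0.053 and -0.020 and did not pass the test, nor did HNRNPUL1 (0.069) or HNRNPUL2 (-0.070).

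In siQKI the median log2 fold change was -0.049 over the 12 SRSF genes against -0.17 over the 21 hnRNP genes. The 12 include SRSF12, which was too low to be assessed (1.72 ± 1.57). Without it the middle value of the other 11 was that of SRSF3 (-0.067). SRSF4 (GSHG0002228, chr1:29147743-29181903), an SR protein with a long arginine and serine domain, was at 23899.9, 22962 and 22786 normalized counts in siCtrl and at 20289, 19216 and 19985 in siQKI. All siQKI libraries were below all siCtrl libraries, and SRSF4 fell by 14.6% (-0.23 ± 0.042, adjusted p = 0.000608). SRSF5 (GSHG0012276, chr14:69726899-69772005), whose mRNA is known to respond to growth stimuli, was the single member that rose, from 116125, 112793 and 110702 in siCtrl to 129959, 129678 and 129830.0 in siQKI. The groups did not overlap, and SRSF5 rose by 14.7% (0.20 ± 0.034, adjusted p = 0.000358). SRSF1 (GSHG0019465, chr17:58000919-58007261), the founding SR protein and an oncogenic splicing factor discussed in the study, was at 63202, 63066 and 63168 in siCtrl and at 61963, 62141 and 61268 in siQKI. The siQKI libraries were all slightly lower, but the log2 fold change of -0.031 ± 0.035 did not pass the test (adjusted p = 0.552), with an interval of 2 SE of -0.10 to 0.038. TRA2B, which activates exons through GAA-rich enhancers, fell by a log2 value of 0.16, while its paralog TRA2A had a value of 0.073 and did not pass (adjusted p = 0.31).

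Calls near the threshold depended on single libraries: those of SRSF9 and HNRNPM were lost without any one of the 3 siCtrl libraries, of siQKI replicate 1 or of siQKI replicate 3, and that of HNRNPR without siCtrl replicate 1. When each library was rescaled to its upper quartile, which raised the median of all genes from 0.025 to 0.087, 12 members were called lower and 4 higher (SRSF5, SRSF6, HNRNPH1 and HNRNPUL1). A fit without a mean-variance trend called 13 members in siQKI. The calls of HNRNPAB and HNRNPK were lost under both of these settings. That of TRA2B was lost only under the rescaling (adjusted p = 0.0645) and that of HNRNPD only without the trend (adjusted p = 0.0543).

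**Figure D3:**
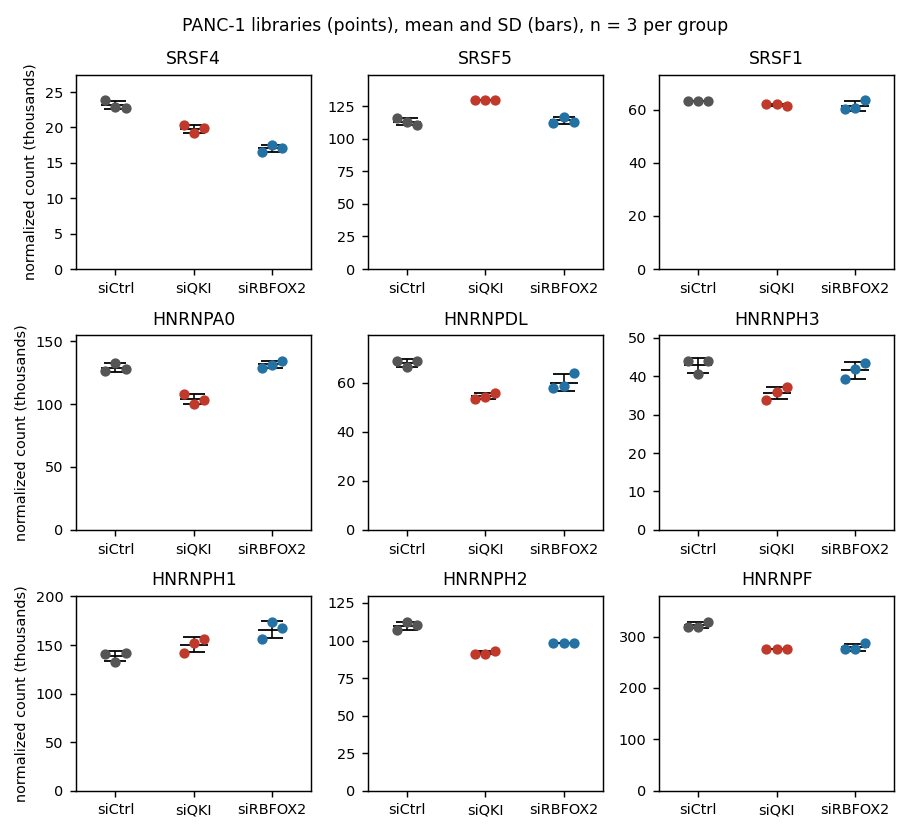
Normalized counts (y axis, from 0) of 9 members in each PANC-1 library (points) by siRNA group, with the mean and SD of the 3 libraries as bars. SRSF5 is higher in siQKI than in both other groups, HNRNPA0 lower in siQKI than in both others, and SRSF4 lowest in siRBFOX2.

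After RBFOX2 silencing, 15 of the 38 tested members fell and 2 rose. Here 7 of 12 SRSF genes fell and none rose, while 7 of 21 hnRNP genes fell and 2 rose, and TRA2B fell. The background over all genes tested was 14.5% lower and 12.0% higher. For genes averaging 10000 or more normalized counts it was 38.9% lower and 14.0% higher, while 44.1% of the members of that abundance were lower, with medians of -0.080 for those genes and -0.084 for those members. As in siQKI, the share that fell was close to that of similarly abundant genes, and both knockdowns were compared with the same 3 siCtrl libraries.

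SRSF4 showed the largest fall of any member in either knockdown, from 23899.9, 22962 and 22786 normalized counts in siCtrl to 16545, 17527 and 17126 in siRBFOX2. All siRBFOX2 libraries lay below those of siCtrl and of siQKI, and SRSF4 fell by 26.5% (-0.44 ± 0.042, adjusted p = 2.24e-06). SRSF8 (GSHG0006646, chr11:95066877-95071225), a copy of SRSF2 without introns, was at 19849, 20009 and 21878 in siCtrl and at 17118, 16954 and 18271 in siRBFOX2, without overlap (-0.24 ± 0.056, adjusted p = 0.00505). SRSF9 (GSHG0010632, chr12:120461668-120469748), a short SR protein close to SRSF1, was at 166369.6, 163633 and 164913 in siCtrl and at 141467, 147569 and 151857 in siRBFOX2, again without overlap (-0.17 ± 0.036, adjusted p = 0.0027). SRSF7 (-0.16) and SRSF3 (-0.13), both adaptors of mRNA export, SRSF2 (-0.15), a marker of nuclear speckles, and SRSF10 (-0.11), which represses splicing when dephosphorylated, made up the rest of the SR genes that fell. SRSF1 was at 60192, 60737 and 63662 normalized counts in siRBFOX2. These libraries overlapped those of siCtrl, and the log2 fold change of -0.038 ± 0.035 did not pass the test (adjusted p = 0.487, 2 SE interval -0.11 to 0.032). SRSF5 (0.013), SRSF6 (0.041) and SRSF11 (0.035) did not pass either. SRSF12 could not be assessed: its libraries ranged from 0 to 64.1 normalized counts.

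In the hnRNP family the F/H group split after RBFOX2 silencing. HNRNPH1 (GSHG0048548, chr5:179614178-179634784) was at 140938, 132398 and 141943 normalized counts in siCtrl and at 156418, 174063 and 167238 in siRBFOX2. It rose by 19.8% (0.26 ± 0.048, adjusted p = 0.000874), with all siRBFOX2 libraries above all siCtrl libraries. Its close paralog HNRNPH2, in contrast, was at 98421, 98049 and 98548 in siRBFOX2 and fell by 10.5% (-0.16 ± 0.034, adjusted p = 0.00232). HNRNPF (GSHG0004905, chr10:43385617-43409186) was at 319237, 317953 and 328967 in siCtrl and at 275323, 274894 and 286824 in siRBFOX2, without overlap (-0.21 ± 0.034, adjusted p = 0.000369). HNRNPH3, which fell in siQKI, had a value of -0.045 ± 0.050 here and did not pass the test (adjusted p = 0.568).

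Of the other hnRNPs, HNRNPAB (GSHG0035044, chr5:178204505-178211180) was at 100551, 96435 and 95311 normalized counts in siCtrl and at 84566, 81665 and 88673 in siRBFOX2 (-0.20 ± 0.041, adjusted p = 0.0021). HNRNPDL was at 57883, 58604 and 63972 in siRBFOX2 (-0.18 ± 0.042, adjusted p = 0.00483). For both, each siRBFOX2 library was below each siCtrl library. HNRNPUL1 (GSHG0021668, chr19:41262496-41307787), a relative of HNRNPU, rose from 65973, 64247 and 63338 in siCtrl to 72739, 70858 and 71792 in siRBFOX2, without overlap (0.15 ± 0.034, adjusted p = 0.00338). HNRNPA3 (-0.16), HNRNPK (-0.13) and HNRNPC (-0.11) also fell, whereas HNRNPA0 (0.029), HNRNPA1 (0.021) and HNRNPU (-0.026) stayed within 2 SE of 0 and did not pass. Of the falls in siRBFOX2, that of SRSF10 was the least stable, being kept in 8 of 17 alternatives and lost without siCtrl replicate 1 or 3 or siRBFOX2 replicate 1 or 3. Those of SRSF3 (kept in 11 of 17), HNRNPC (12), SRSF2 (13), HNRNPA3 (13) and TRA2B (15) were also each lost without at least 1 single library of the groups compared. The calls of SRSF7, SRSF8 and HNRNPDL were lost only without a mean-variance trend in the fit (adjusted p = 0.0579, 0.0557 and 0.0526). In that fit 8 members in all were called.

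The 3′UTRs of the members were searched for the 6-base elements of the silenced proteins, written as DNA on the sense strand: ACTAAC for QKI and TGCATG for RBFOX2. A transcript with a 3′UTR was available in GENCODE release 29 (GRCh38, the same assembly as hg38) for 37 members. The QKI element was found in the 3′UTR of 4 of them (HNRNPK, HNRNPUL2, SRSF11 and SRSF3) and of 2885 of 18908 genes. The RBFOX element was found in 12 members and in 5721 of 18908 genes. Within the first 500 bases, where length does not differ, 3.23% of 31 members held the QKI element against 5.70% of 12308 genes, and 12.9% held the RBFOX element against 14.4%. Of the 18 members lower in siQKI, 17 could be searched and 1, HNRNPK, held the exact ACTAAC. Shorter ACTAA matches were not counted, nor were TCTAAC and GCTAAC, the other forms of the motif found by the study. The 3′UTR of HNRNPDL, the member that fell most in siQKI, holds ACTAA just after its TGCATG element. How many members hold any such QKI element was therefore not determined. Among the 15 lower in siRBFOX2, 6 held TGCATG (HNRNPDL, HNRNPH2, SRSF3, SRSF7, SRSF8 and TRA2B), as did HNRNPH1 among the 2 that rose and 5 of the 18 searched members without a call. SRSF4, the member with the largest fall, held neither the exact ACTAAC nor TGCATG in its 3′UTR, and introns and coding exons were not searched. The following sites are shown because their genes were called in the matching knockdown, HNRNPH1 and HNRNPH2 in opposite directions. Capitals mark the element, and each line gives the sense strand 5′ to 3′.
HNRNPH1: ctgttttggaTGCATGttgaaagaca
HNRNPH2: aaacttcggaTGCATGttgagaaaca
HNRNPDL: tttgacacagTGCATGaactaagtag
TRA2B: aagtatgtttTGCATGtattttttta
SRSF3: tttgaggtgtTGCATGggaattctaa
SRSF7: taccaaaaaaTGCATGtttgaggaat
SRSF8: tctgtattgtTGCATGtggctgagtt
HNRNPK: gcgtgcaaaaACTAACattgaaattt
The HNRNPH1 site lies at chr5:179614480-179614505 on the minus strand and the HNRNPH2 site at chrX:101413800-101413825 on the plus strand. Of their 26 bases 19 are identical, a count that includes the 6 bases of the element by which both sites were chosen. The others lie at chr4:82423872-82423897 (HNRNPDL, minus), chr3:185917476-185917501 (TRA2B, minus), chr6:36603254-36603279 (SRSF3, plus), chr2:38744335-38744360 (SRSF7, minus), chr11:95071129-95071154 (SRSF8, plus) and chr9:83969151-83969176 (HNRNPK, minus). A match describes the sequence only, and binding was not measured in these libraries.

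The knockdowns were next compared with each other, without the siCtrl libraries except for the estimate of spread. In this comparison 10 of the 38 tested members differed: 8 were lower and 2 higher in siQKI than in siRBFOX2. Over all genes tested 11.6% were lower and 9.93% higher, and among those averaging 10000 or more normalized counts 23.6% were lower and 18.7% higher. The members that were lower in siQKI were 7 hnRNP genes and the HNRNPA1P10 copy, and those that were higher were both SRSF genes. HNRNPA0 differed most (-0.34 ± 0.038, adjusted p = 1.3e-05), with 129044, 131345 and 134436 normalized counts in siRBFOX2 against the values in siQKI given above. HNRNPH3 followed with -0.22 (adjusted p = 0.00462), then HNRNPA1 with -0.21 (adjusted p = 0.00139), HNRNPU with -0.15 (adjusted p = 0.00458), HNRNPH1 with -0.14 and HNRNPDL with -0.14. SRSF4 was higher in siQKI (0.22 ± 0.042, adjusted p = 0.00158), having fallen less there, and SRSF5 was higher as well (0.19 ± 0.034, adjusted p = 0.00107). The difference was above 0 for all 12 tested SRSF genes, with a median log2 value of 0.077, and below 0 for 16 of 21 hnRNP genes, with a median of -0.086, against 0.0052 over all genes and -0.012 over genes averaging 10000 or more normalized counts. Without SRSF12, which could not be assessed, the median over the other 11 SRSF genes was 0.069. Of the 22544 genes tested 11103 were below 0, and of the 5003 abundant ones 2640. As a description without a test, this leaning of the families remained when single libraries were left out, with 10 to 12 SRSF genes above 0 and 13 to 17 hnRNP genes below 0. Under upper-quartile rescaling 5 members were called higher (SRSF2, SRSF4, SRSF5, SRSF8 and SRSF10) and 5 lower in siQKI. The calls of HNRNPH1 (adjusted p = 0.0435) and HNRNPH2 (adjusted p = 0.0473) were the least stable, the second being lost without any one of the siQKI or siRBFOX2 libraries.

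**Figure D4:**
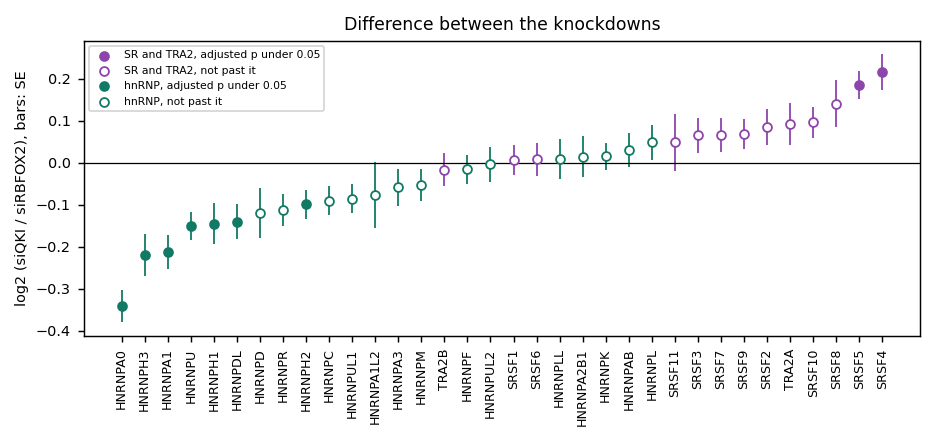
Log2 ratio of siQKI to siRBFOX2 (y axis) with SE for each SR or TRA2 gene (purple) and hnRNP gene (green) averaging 50 or more normalized counts, ordered by value and without the symbols that end in a pseudogene number. Filled symbols passed the adjusted threshold of 0.05. The lower end from HNRNPA0 (-0.34) is made up of hnRNP genes and the upper end to SRSF4 (0.22) of SR genes.

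Genes that act on the same proteins, or belong to the families under other names, were counted in the same fits. Over all genes tested, 18.1% were lower and 14.9% higher in siQKI, and 14.5% and 12.0% in siRBFOX2. The kinases and the import receptor of SR proteins numbered 10. PRPF4B, a kinase of the spliceosome, fell in both knockdowns (-0.32 in siQKI, -0.29 in siRBFOX2). In siQKI 3 of the 10 fell (also CLK3 and the import receptor TNPO3) and in siRBFOX2 4 fell (also SRPK2, CLK1 and DYRK1A). SRPK3, at a mean of only 43.1 normalized counts in siCtrl, rose in each. SRPK1, the major cytoplasmic SR kinase, did not pass in either (-0.024 and 0.0008). SRPK2, CLK1 and DYRK1A were higher in siQKI than in siRBFOX2, and TNPO3 was lower. In that comparison 9.93% of all genes tested were higher and 11.6% lower. Of 17 tested SR-related nuclear proteins, 2 fell and 1 rose in siQKI, and 5 fell and 1 rose in siRBFOX2. Most of these 17 averaged 10000 or more normalized counts. Of all genes at that level, 44.0% were lower and 16.8% higher in siQKI, and 38.9% and 14.0% in siRBFOX2. LUC7L2, a component linked to the U1 particle whose row is joined with FMC1, fell most in siRBFOX2 (-0.47 ± 0.036, adjusted p = 3.13e-07). RNPS1, a protein of the exon junction complex, fell in both knockdowns (-0.19 and -0.26), and PNN, its partner in nuclear speckles, rose in both (0.12 and 0.17).

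Among hnRNP proteins that carry other symbols, PTBP1 and PCBP2 fell further in siQKI than any member averaging 50 or more normalized counts. Of the 13 tested, 9 fell and 1 rose in siQKI, and 5 fell and none rose in siRBFOX2. Of all genes averaging 10000 or more normalized counts, 44.0% were lower in siQKI and 38.9% in siRBFOX2. PTBP1, which represses exons through pyrimidine tracts, was at 147413, 150229 and 149874 normalized counts in siCtrl, 69710.5, 68151 and 65998 in siQKI and 133482, 128296 and 132593 in siRBFOX2. The siQKI libraries were below all others, at a mean of 45.5% of siCtrl (-1.13 ± 0.035, adjusted p = 1.15e-11), and siRBFOX2 was moderately lower (-0.18 ± 0.035, adjusted p = 0.00119). PCBP2, which binds cytidine-rich RNA, was at 135062, 143989.8 and 143435 in siCtrl, 68616, 69219.8 and 66919.7 in siQKI and 121669, 113779 and 120554 in siRBFOX2. It too was lowest in siQKI, at 48.5% of siCtrl (-1.04 ± 0.039, adjusted p = 8.37e-11). CIRBP, a cold-inducible RNA-binding protein, fell by 0.49 on the log2 scale in siQKI and had a value of -0.040 in siRBFOX2 that did not pass. SYNCRIP (-0.34 and -0.19) and PCBP1 (-0.31 and -0.24) fell in both. MATR3, whose row is joined with SNHG4, was the member of this list that rose in siQKI (0.16). PTBP1, PCBP2 and CIRBP also differed between the knockdowns, with log2 ratios of siQKI to siRBFOX2 of -0.95, -0.80 and -0.45 (adjusted p = 2.24e-10, 4.16e-09 and 0.000207). The genes of these lists named here were picked after their values had been seen.

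The control libraries of the classical line HPAF-II were finally set beside those of PANC-1. The authors had normalized the lines apart, so libraries were each scaled to sum to 1000000, the values were described without a test, and line and processing cannot be told apart. Of 38 members compared, 7 were at least 2-fold higher and 1 at least 2-fold lower in HPAF-II, against 27.2% and 25.2% of all 24673 genes compared. Among genes averaging 10000 or more normalized counts in one line or the other, 18.2% were at least 2-fold higher and 17.0% at least 2-fold lower. The libraries did not overlap for 32 members, 25 higher and 7 lower in HPAF-II, while 63.7% of all genes and 78.0% of the abundant ones did not overlap. These shares were not split by direction. The hnRNP genes leaned towards HPAF-II, with 17 of 21 higher and a median log2 ratio of 0.63. For the 11 SRSF genes with more than 1 rescaled count the median was 0.094, with 6 higher and 5 lower. The median was 0.042 over the abundant genes and 0.080 over all genes compared. Without rescaling, the deposited values lowered that overall median to -0.20, and 24 rather than 27 members were higher in HPAF-II. On that scale 17 members were higher and 12 lower without overlap, and 4 were at least 2-fold higher and 2 at least 2-fold lower. The shares of all genes were not counted on that scale, so these counts have no background.

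HPAF-II replicate 3 stood apart from the other 2. It differed by at least 1.5-fold from their mean in 8 of the 35 members with more than 1 rescaled count, as it did in 28.2% of all such genes (8.89% for replicate 1 and 13.0% for replicate 2). For 30 of these 35 members it was the HPAF-II library nearest to the PANC-1 mean, against 52.2% of 11533 genes. VIM, the mesenchymal intermediate filament abundant in PANC-1, was at 85.3 normalized counts in replicate 3 and at 81.3 and 4248 in replicates 2 and 1. Without replicate 3, 11 members were at least 2-fold higher and 2 at least 2-fold lower. All ratios below are therefore given with and without it.

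**Figure D5:**
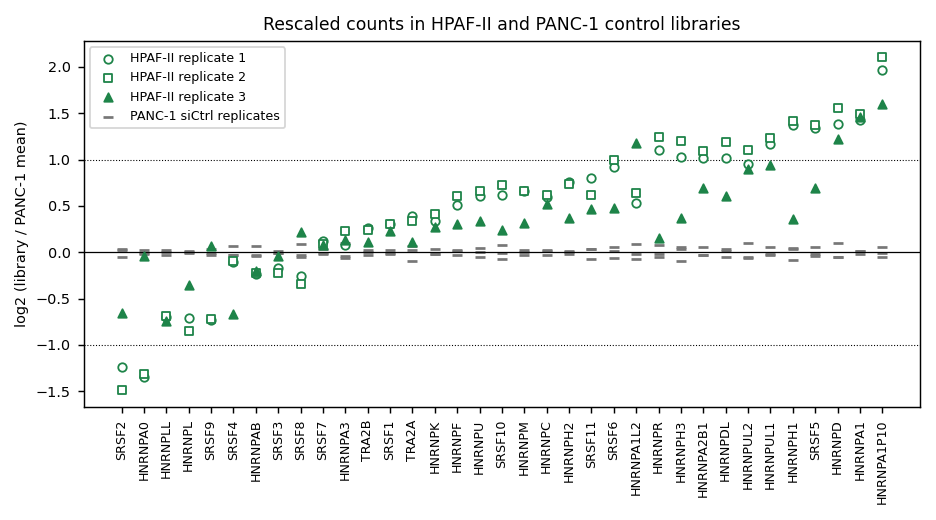
Log2 ratio of each HPAF-II control library (green symbols, replicate 3 filled) and each PANC-1 siCtrl library (gray dashes) to the PANC-1 mean, in counts rescaled to a total of 1000000 per library, for the 35 members with more than 1 rescaled count in PANC-1. Dotted lines mark a 2-fold difference. Replicate 3 lies nearest to PANC-1 for 30 of the 35.

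Of members higher in HPAF-II, HNRNPA1, an abundant repressor of splice sites, was at 514, 515 and 501 rescaled counts in PANC-1 and at 1372, 1431 and 1397 in HPAF-II, a ratio of 2.75 (2.75 without replicate 3). Its copy HNRNPA1P10 was at 58.7, 56.0 and 54.3 and 219.8, 242 and 170.0, a ratio of 3.74 (4.10 without replicate 3). Among members with more than 1 rescaled count, replicate 3 lay at least 2-fold above the PANC-1 mean for HNRNPA1, HNRNPA1P10, HNRNPD and HNRNPA1L2. For HNRNPA1L2 replicate 3 was the highest library, with 43.42, 46.99 and 68.31 in HPAF-II against a PANC-1 mean of 30.1. Its ratio was 1.758 (1.502 without replicate 3), and it was not among the 7 members at least 2-fold higher. HNRNPD was at 218, 196 and 197 in PANC-1 and at 530.2, 601 and 475 in HPAF-II (ratio 2.63, 2.78 without replicate 3). SRSF5 was at 343, 324 and 321 in PANC-1 and at 830.0, 854 and 531 in HPAF-II (ratio 2.24, 2.56 without replicate 3). For HNRNPH1 the values were 416, 380.3 and 411 in PANC-1 and 1038, 1077 and 514 in HPAF-II (ratio 2.18, 2.63 without replicate 3). Both of the last lay above all PANC-1 libraries in each HPAF-II library, though least so in replicate 3. HNRNPUL1 (ratio 2.17, 2.30 without replicate 3) was also at least 2-fold higher. The last of the 7 was SRSF12, which was at 0 in HPAF-II replicates 1 and 2 and was too low to be compared without replicate 3.

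Lower in HPAF-II was SRSF2, at 1868, 1979 and 1970.0 rescaled counts in PANC-1 and 821, 691 and 1226 in HPAF-II, a ratio of 0.471 (0.39 without replicate 3). HNRNPA0 was at 372, 382 and 371 in PANC-1 and 148, 150.2 and 363 in HPAF-II, so that replicate 3 alone moved its ratio from 0.397 to 0.588. The CA-repeat proteins HNRNPL and HNRNPLL were both lower in every HPAF-II library. HNRNPL was at 356, 355 and 351 and 216, 196 and 278 (ratio 0.649, 0.582 without replicate 3). HNRNPLL, which showed no such gap between replicates, was at 30.5, 31.3 and 31.8 and 19.2, 19.4 and 18.6 (ratio 0.611, 0.619 without replicate 3). SRSF4 was at 70.5, 66.0 and 66.0 in PANC-1 and 62.7, 63.1 and 42.4 in HPAF-II, where the ratio of 0.831 rested mainly on replicate 3 (0.932 without it). SRSF9 overlapped between the lines, since replicate 3 was at 502 rescaled counts and replicates 1 and 2 at 288 and 291, below the PANC-1 mean of 479.5. SRSF1 was at 186, 181 and 183 in PANC-1 and 226, 227 and 216 in HPAF-II, higher in each library at a ratio of 1.21 (1.23 without replicate 3).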

How the data were processed

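RNA was sequenced as paired-end polyadenylated libraries, aligned to hg38 with STAR 2.7.5a per the submitters' processing notes, and counted on FAST DB genes. The deposited values are a signal of gene counts divided by size factors (DESeq2) by the authors, separately for each line. Divided by its smallest step, each column held whole numbers within 0.1, and sums of 226697015 to 376192091 steps per library, but 82.1% to 84.8% of steps up to 30 were multiples of 3. A step is thus no single fragment, and depth and counting error are unknown. No column of other samples was present. Groups followed the labels.

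The members and lists were chosen with earlier results of these data known. From the files, log2(normalized count + 1) of genes with a mean of at least 10 over the 9 PANC-1 libraries was fitted in limma 3.58.1 (R 4.3.3) with a mean-variance trend, over all 3 groups, two-sided, with Benjamini-Hochberg adjustment over all 22544 genes and a threshold of 0.05. This step was tested on simulated data. Errors are SE of log2 values. HPAF-II and PANC-1 were compared after rescaling, with a pseudocount of 0.01, over genes with a mean of at least 10 in either line. Per-library values are given for SRSF1, for up to 6 of the largest falls and rises per knockdown among called members with a mean of at least 50 and no overlap with siCtrl, and for up to 5 of the largest ratios in each direction between lines without overlap. Alternatives were 2 other pseudocounts, 2 filters, upper-quartile rescaling, fits of only 2 groups, a replicate block, no trend and each library left out. Tables and figures used Python 3.11.15.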

Additional observations from a re-analysis of the deposited data

How the results depend on the processing

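The number of members called stayed within 1.5 times of the reported 19 (siQKI), 17 (siRBFOX2) and 10 (siQKI against siRBFOX2) under every alternative run, except that a fit without a mean-variance trend called 8 in siRBFOX2 and 6 between the knockdowns. No called member changed sign under any of them. Leaving out single libraries gave 16 to 20 members in siQKI, 12 to 17 in siRBFOX2, and 7 to 11 between the knockdowns. Between the lines, leaving out single libraries gave 6 to 13 members at least 2-fold apart instead of 8, the 13 without HPAF-II replicate 3. Upper-quartile rescaling changed the split between higher and lower calls in siQKI and between the knockdowns, as given above. In siRBFOX2 it called 2 members higher and 11 lower, and the calls of SRSF3, SRSF10, HNRNPA3 and HNRNPC were lost.

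Replicate numbers were shared between groups but gave no sign of pairing, the correlation of deviations from the group means across genes being -0.033 to 0.024 for same-numbered libraries and -0.033 to 0.038 for the others. With the replicate block 17 members were called in siQKI, 17 in siRBFOX2 and 9 between the knockdowns. A planned count test with edgeR was not run, since the deposited values did not give back counts of fragments. What depth limits cannot be given, since it is unknown, and the cause of the apartness of HPAF-II replicate 3 was not tested.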
